A study of Homo sapiens with 6 samples.

Results

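The 10 enzymes that build purine nucleotides from small precursors were followed in C666-1 cells cultured without serine and glycine. They are PPAT, GART, PFAS, PAICS, ADSL, ATIC, ADSS2, GMPS, IMPDH1 and IMPDH2, taken by gene symbol from an expression table of 16407 genes, and all 10 were in the table and passed the filter on low counts. C666-1 is an established line of human nasopharyngeal carcinoma, positive for Epstein-Barr virus. The deprived cells spent 24 h in a medium from which serine and glycine had been removed. The control cells spent 24 h in complete medium, which held 0.4 mM serine and 0.4 mM glycine. Both media were an essential-amino-acid base without the usual non-essential amino acids, with antibiotics, 4.5 g/L glucose and 10% dialyzed serum. Each medium had 3 mRNA libraries, numbered 1 to 3. The labels do not say whether these came from separate cultures, so p-values measure only the spread between libraries, which may be technical. The comparison asks how tumour cells in a medium without both amino acids set the transcripts of a pathway that uses them. Levels inside the cells are not part of these data.

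De novo purine synthesis assembles the purine ring step by step on phosphoribosyl pyrophosphate (PRPP), the activated ribose. Glycine enters the ring whole, glutamine and aspartate give nitrogens, carbon dioxide gives a carbon, and formyl-tetrahydrofolate, whose carbon comes largely from serine, gives the remaining carbons in the steps run by GART and ATIC. The trunk of the pathway ends at inosine monophosphate (IMP), from which one branch leads to AMP and the other to GMP. Proliferating cells rely on this route for DNA and RNA precursors.

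The libraries held 16612196 to 17030355 estimated counts, of which 25687 to 31141 belonged to the 10 enzymes. Libraries 1 of both media stood apart: the chi-square per gene between libraries 1 and 2 of the serine- and glycine-free medium was 16.2, while library 1 of that medium and library 1 of complete medium gave 10.0. For the enzymes and the named genes of other lists, calls that change without both libraries numbered 1 are given. Epithelial keratins were abundant, with KRT8 and KRT18 at 507 to 715 and 1088 to 1140 TPM without serine and glycine and at 548 to 661 and 1151 to 1239.7 TPM in complete medium, while the epithelial markers KRT5 (basal keratin) and CDH1 (E-cadherin) were at most 0.23 TPM in any library. The 3 leukocyte markers found in the table summed to 2.07 to 3.08 TPM without serine and glycine and 1.06 to 1.75 TPM in complete medium, and the 3 endothelial ones to 0.74 to 1.49 TPM without serine and glycine and 0.53 to 1.09 TPM in complete medium. The 5 fibroblast markers in the table summed to 15.2 to 20.4 TPM without serine and glycine and 15.9 to 20.5 TPM in complete medium. The part of these markers in the results was not tested. In bulk RNA, fewer cells of a kind and less RNA per cell cannot be told apart.

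Upstream sequences of members are shown because members share start regions with neighbouring genes whose values are given below. By the RefSeq start sites used here, PPAT and PAICS lie head to head on chromosome 4, and so do GART and SON on chromosome 21, SON being a splicing cofactor that is not a purine gene. ADSS2 is shown as the member with the lowest log2 fold change. The sequences are from RefSeq on GRCh38.p14 and run 5′ to 3′ on the minus strand, which is the strand of PPAT, GART and ADSS2. Capitals mark GC boxes (GGGCGG) and CCAAT boxes (CCAAT), searched on both strands.
PPAT to PAICS, chr4:56435616-56435751: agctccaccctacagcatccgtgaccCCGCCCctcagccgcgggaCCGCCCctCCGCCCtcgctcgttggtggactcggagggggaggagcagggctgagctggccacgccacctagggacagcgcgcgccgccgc
GART to SON, chr21:33542893-33543037: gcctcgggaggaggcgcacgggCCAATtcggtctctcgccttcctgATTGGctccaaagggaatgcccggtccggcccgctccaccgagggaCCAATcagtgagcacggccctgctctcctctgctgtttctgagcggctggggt
ADSS2 upstream, chr1:244452135-244452310: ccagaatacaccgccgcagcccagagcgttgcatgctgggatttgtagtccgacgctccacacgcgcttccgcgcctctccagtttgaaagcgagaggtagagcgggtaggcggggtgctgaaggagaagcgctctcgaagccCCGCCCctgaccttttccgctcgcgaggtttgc
RefSeq gives PAICS 3 start sites, and the stretch shown ends at the one nearest to PPAT, at 56435752; another, at 56410507, lies inside PPAT. The 136 bases between the starts of PPAT and PAICS held 3 GC boxes and no CCAAT box, and the 145 bases between GART and SON held 3 CCAAT boxes and no GC box. The 176 bases upstream of the annotated exons of ADSS2 held 1 GC box. Among RefSeq promoter windows, which run from 250 bases before to 50 after a gene start, 8 of the 10 members had an entry, with 13 windows in all. Some of the 13 windows overlap, within ADSS2, within GART, and between PPAT and PAICS, so some bases are counted more than once. A GC box was in 10 of the 13 windows, against 44.95% of 35097 windows over all genes. A CCAAT box was in 3 of the 13, all of GART, against 34.6% of all windows. The E-box CACGTG, a motif bound by MYC among other factors, was in 3 of the 13, one each of ATIC, PPAT and PAICS, the last pair overlapping, against 7.25% of all windows. The amino acid response core TGATGNAA was in 0 of the 13, against 3.62% of all windows. These motif counts describe the letters only.

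Of the 10 enzymes, 3 fell and 0 rose. GART, ADSL and ADSS2 were called lower, meaning a p under 0.05 from edgeR's quasi-likelihood fit after Benjamini-Hochberg adjustment, in a table where 4.22% of 12548 tested genes were called lower and 2.73% higher. The log2 fold changes of the 10 enzymes ran from -0.49 to 0.02 with a median of -0.23, while the median over all tested genes was -0.00070. A negative value was found for 9 of the 10, against 50.2% of tested genes. At an unadjusted p under 0.05, 7 were lower and 0 higher, against 14.4% of tested genes lower. The values of the 2 media did not overlap, with every library lower without serine and glycine, in CPM for 8 of the 10, against 16.4% of tested genes, and 0 of the 10 were higher in every library, against 16.1%. With replicate number entered as a block, 7 of the 10 were called lower and 0 higher, against 13.2% and 11.1% of tested genes, namely GART, PFAS, PAICS, ADSL, ATIC, ADSS2 and IMPDH2. Without both libraries numbered 1 the same 7 were called lower and 0 higher, against 15.5% and 13.5%. Without replicate 2 or 3 of either medium, each left out in turn, edgeR called 0 of 10 enzymes and 0.00% of all genes, while 6 of 10 were lower at an unadjusted p under 0.05 in each of those 4 fits, against 9.19% to 12.1% of all genes.

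In each of the remaining settings 0 of the 10 were called higher. GART, ADSL and ADSS2 were the 3 called with DESeq2's size factors in edgeR, against 4.21% of genes lower and 2.76% higher, by library totals, against 3.61% and 3.43%, and by limma voom, against 3.9% and 2.46%. PFAS and ATIC joined them with no filter on low counts, against 3.89% and 2.72%, by DESeq2, against 6.24% and 4.24%, and with deprived library 1 left out, against 7.74% and 5.99%. ATIC alone joined them without replicate 1 of complete medium, against 6.23% and 4.19%. On log2(FPKM + 1) limma called 0 of the 10, against 1.7% and 0.875%, while 6 were lower at an unadjusted p under 0.05, against 12.6% of all genes. On log2(FPKM + 0.1) and log2(TPM + 1) it called 0.0% of all genes.

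**Figure D1:**
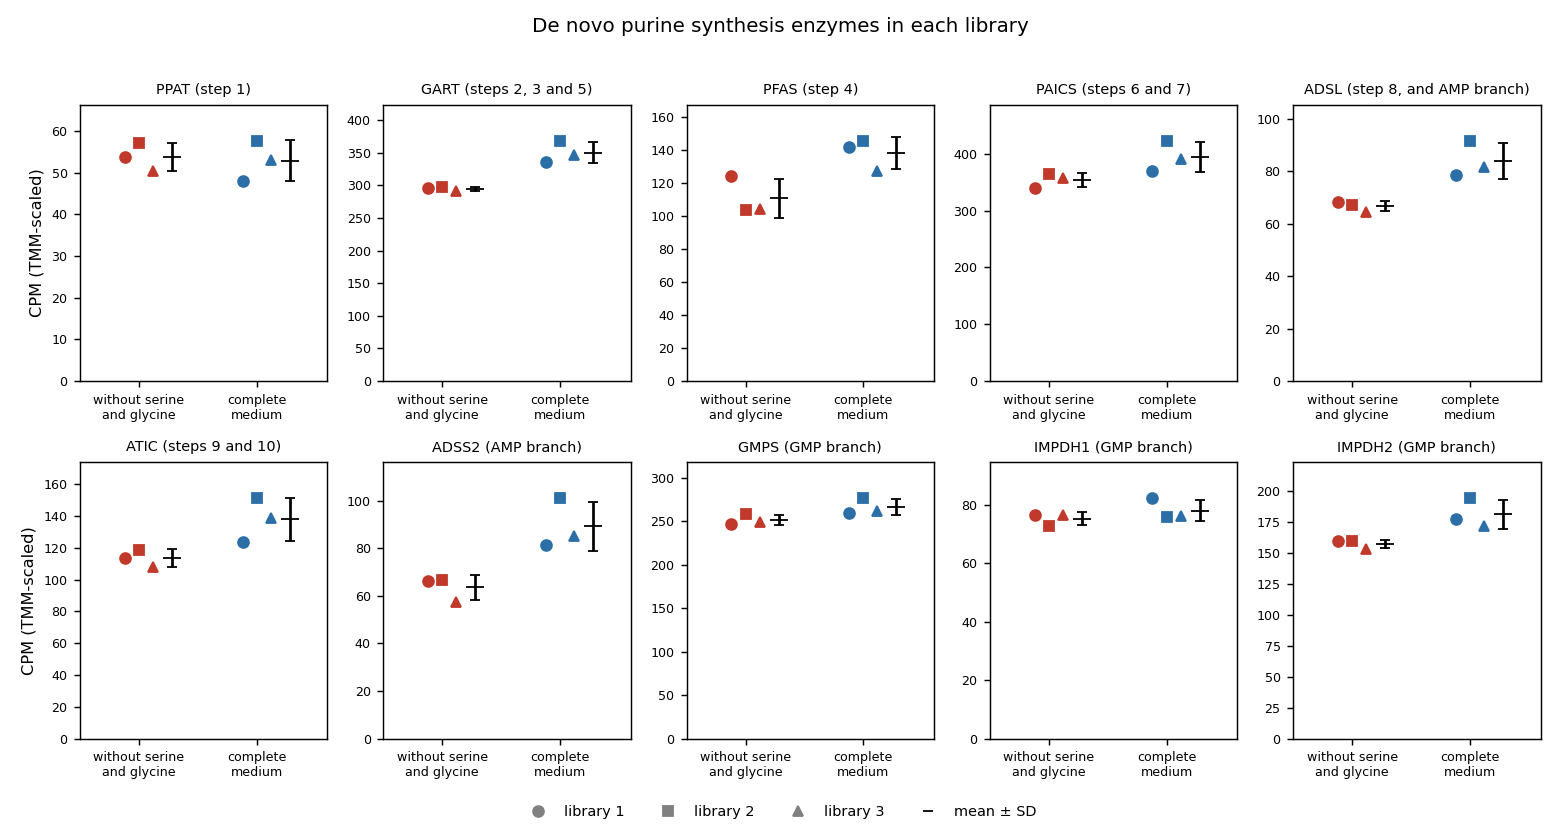
Counts scaled to library size (CPM, TMM-scaled) of each enzyme in every library, with the medium without serine and glycine on the left and complete medium on the right of each panel. Symbols give the library number and black bars the mean ± SD of 3 libraries. The media overlap for PPAT and IMPDH1 and do not overlap for the other 8 enzymes.

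The entry enzyme was not called. PPAT, the amidotransferase that commits PRPP to purine synthesis and is inhibited by its end products (NCBI Gene 5471; GRCh38 chromosome 4, 56393362 to 56435615), stood at 53.7, 57.2 and 50.3 CPM in libraries 1, 2 and 3 without serine and glycine and at 48.0, 57.7 and 53.1 CPM in complete medium. The 2 media overlapped, and the means were 53.8 ± 3.44 CPM without serine and glycine and 52.9 ± 4.83 CPM in complete medium (SD, n = 3 each). Its log2 fold change was 0.02 (SE 0.084, edgeR adjusted p = 0.890).

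GART fell. It carries 3 activities of the trunk on a single protein, one of which joins glycine to the growing molecule and another of which adds a formyl-folate carbon (NCBI Gene 2618, chromosome 21, 33503931 to 33542893). Its level was 296, 297 and 291 CPM without serine and glycine, against 336, 369 and 347 CPM in complete medium. The 3 libraries without serine and glycine were close together and all below the lowest of complete medium. This is a log2 fold change of -0.25 (SE 0.061, edgeR adjusted p = 0.0410), or 84.1% of the level in complete medium. The adjusted p was 0.114 and 0.147 without replicates 2 and 3 of the deprived medium, and 0.171 and 0.137 without replicates 2 and 3 of complete medium. SON, which overlaps GART on the opposite strand in the GENCODE annotation, where both genes extend past the RefSeq starts, was at 376 CPM without serine and glycine and 353 CPM in complete medium, a log2 fold change of 0.09 (edgeR adjusted p = 0.364). As the strand handling of the counts is not given, reads from the stretch shared by GART and SON cannot be told apart.

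PFAS and PAICS, the next enzymes, were lower in every library but did not pass the test. PFAS, which transfers a glutamine nitrogen (NCBI Gene 5198, chromosome 17, 8247608 to 8270486), was at 124, 103 and 104 CPM without serine and glycine and at 142, 145 and 127 CPM in complete medium. Library 1 of the deprived medium was the high one of its group and lay just under the lowest of complete medium. The log2 fold change was -0.32 (SE 0.085, edgeR adjusted p = 0.0510). Adjusted p-values were 0.00603 with the replicate block, 0.00529 when replicate 1 of the deprived medium was left out, 0.000392 when both libraries numbered 1 were, 0.0340 with no filter on low counts and 0.0183 by DESeq2. In TPM the media overlapped, at 51.5, 40.2 and 39.7 TPM without serine and glycine and 56.2, 53.3 and 48.0 TPM in complete medium. CTC1, a telomere maintenance gene that overlaps PFAS on the opposite strand, was at 22.7 CPM without serine and glycine and 32.1 CPM in complete medium and fell by 0.50 on the log2 scale (edgeR adjusted p = 0.0367). The sources used here do not give the strand handling of the counts, so reads from the shared stretch cannot be told apart.

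PAICS, which holds a carboxylase and an aspartate-adding synthetase in one protein (NCBI Gene 10606, chromosome 4, 56410507 to 56464578 when all RefSeq start sites are counted), was at 339, 364 and 358 CPM without serine and glycine and at 370, 423 and 391 CPM in complete medium. The media did not overlap, and library 2 was the highest in each. PAICS had a log2 fold change of -0.16 (SE 0.070, edgeR adjusted p = 0.174, 0.0344 with the replicate block and 0.0160 without both libraries numbered 1). PAICS transcripts were 6.29, 6.34 and 7.12 times those of PPAT, per length in TPM, without serine and glycine, against 7.68, 7.33 and 7.37 times in complete medium. These ratios did not overlap between the media, and the difference was not tested.

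ADSL and ATIC complete the trunk. ADSL, which releases fumarate in a trunk step and again in the AMP branch (NCBI Gene 158, chromosome 22, 40346500 to 40387527), was at 68.3, 67.4 and 64.6 CPM without serine and glycine, against 78.7, 91.7 and 81.6 CPM in complete medium. Every deprived library was below every control library, and the spread was narrower in the deprived medium (SD 1.92 CPM, against 6.82 CPM in complete medium, n = 3 each). ADSL fell, with a log2 fold change of -0.33 (SE 0.072, edgeR adjusted p = 0.0312). The adjusted p was 0.0908 and 0.114 without replicates 2 and 3 of the deprived medium, and 0.130 and 0.104 without replicates 2 and 3 of complete medium. SGSM3, annotated as overlapping ADSL on the same strand, had a log2 fold change of 0.10 (edgeR adjusted p = 0.498). How reads from the stretch shared by ADSL and SGSM3 were assigned was not tested.

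ATIC, which adds the second formyl-folate carbon and closes the ring to IMP (NCBI Gene 471, chromosome 2, 215312059 to 215368592), was at 114, 119 and 108 CPM without serine and glycine and at 124, 151 and 139 CPM in complete medium. The media did not overlap, and library 1 was the lowest of complete medium. ATIC had a log2 fold change of -0.28 (SE 0.079, edgeR adjusted p = 0.0577). The adjusted p was 0.00879 with the replicate block, 0.0440 when replicate 1 of the deprived medium was left out, 0.0244 when replicate 1 of complete medium was, 0.000641 when both were, 0.0430 with no filter on low counts and 0.0307 by DESeq2.

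**Figure D2:**
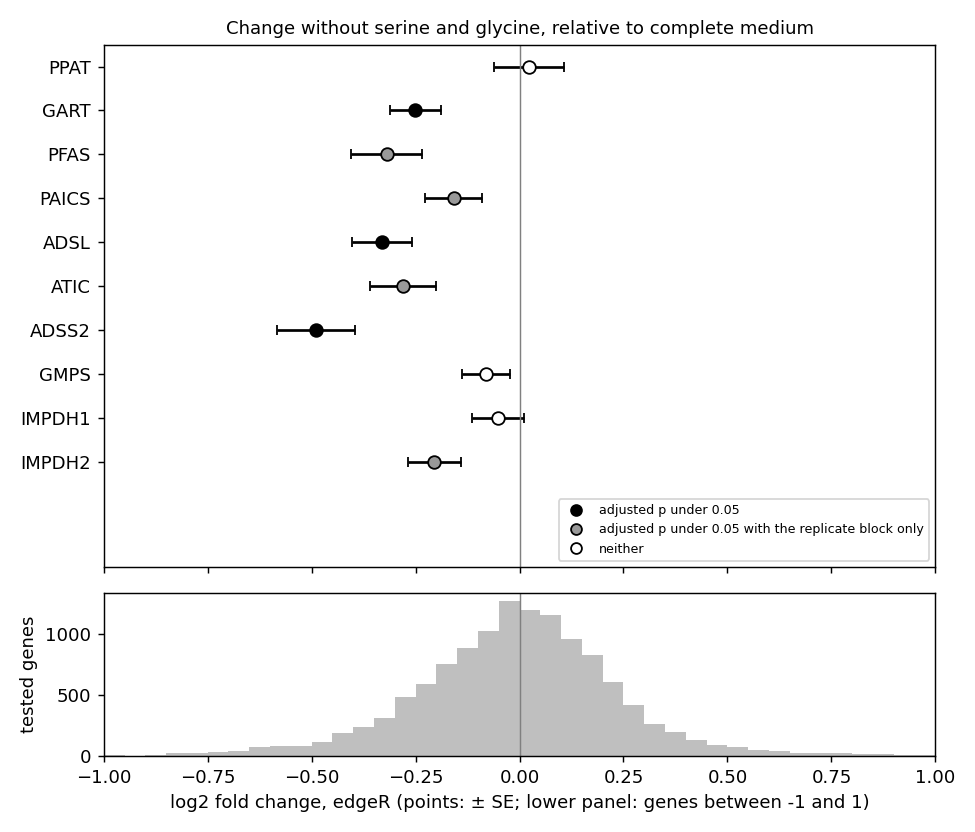
Upper panel, log2 fold change of each enzyme, serine- and glycine-free over complete medium, with SE, from the edgeR fit to 3 against 3 libraries. Black points passed at an adjusted p under 0.05, grey points passed only with the replicate block and open points passed in neither fit. The lower panel counts all tested genes with a log2 fold change between -1 and 1, and the enzymes run from ADSS2 at -0.49 to PPAT at 0.02.

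In the main analysis ADSS2 and ADSL of the AMP branch were called lower, and IMPDH1, IMPDH2 and GMPS of the GMP branch were not called. With the replicate block IMPDH2 was also called lower. ADSS2, which joins aspartate to IMP on the way to AMP (NCBI Gene 159, chromosome 1, 244408494 to 244452060), was at 66.3, 66.8 and 57.5 CPM without serine and glycine, against 81.4, 101 and 85.4 CPM in complete medium. Library 3 was the lowest of the deprived medium and library 2 the highest of complete medium, and no values overlapped. The log2 fold change was -0.49 (SE 0.093, edgeR adjusted p = 0.0246), or 71.2% of the level in complete medium, the largest fall of the 10 in this fit. Of all tested genes, 3.43% had a lower log2 fold change. The adjusted p was 0.0656 and 0.0958 without replicates 2 and 3 of the deprived medium, and 0.113 and 0.0890 without replicates 2 and 3 of complete medium. ADSS1, the isozyme best known from muscle, was at 7.23, 6.93 and 7.83 CPM without serine and glycine and at 5.56, 5.51 and 5.58 CPM in complete medium, a log2 fold change of 0.40 (SE 0.128, edgeR adjusted p = 0.0814, and 0.0411 with the replicate block).

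IMPDH2, the inosine monophosphate dehydrogenase that is raised in proliferating cells (NCBI Gene 3615, chromosome 3, 49024325 to 49029398), was at 159, 159 and 153 CPM without serine and glycine and at 177, 194 and 172 CPM in complete medium. In CPM the media did not overlap, while in TPM library 1 of the deprived medium, at 235.6, was above library 3 of complete medium, at 233 TPM. The log2 fold change was -0.20 (SE 0.063, edgeR adjusted p = 0.0745, 0.0149 with the replicate block and 0.00954 without both libraries numbered 1). IMPDH1, the isozyme of the same step (NCBI Gene 3614, chromosome 7, 128392277 to 128409982), was at 76.6, 72.7 and 76.4 CPM without serine and glycine and at 82.2, 75.6 and 76.1 CPM in complete medium, and the media overlapped. Its log2 fold change was -0.05 (SE 0.063, edgeR adjusted p = 0.633). The estimated counts of IMPDH1, IMPDH2 and ADSS2 were whole to 1 decimal place in every library. Those of GMPS were fractional without serine and glycine, such as 4238.2 in library 1. Whether the counting divided reads between IMPDH1 and IMPDH2, or between ADSS1 and ADSS2, was not tested.

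GMPS, which adds the amino group that makes GMP (NCBI Gene 8833, chromosome 3, 155869430 to 155944020), was at 247, 258 and 249.8 CPM without serine and glycine and at 259, 276 and 262 CPM in complete medium. In CPM the values did not overlap, while in TPM they did, at 60.5, 59.9 and 57.7 TPM without serine and glycine and 60.9, 61.4 and 59.3 TPM in complete medium. The log2 fold change was -0.08 (SE 0.058, edgeR adjusted p = 0.400). NDUFAF3, a complex I assembly factor that lies 830 bases from IMPDH2, was at 13.9 CPM without serine and glycine and 20.7 CPM in complete medium and fell by 0.57 on the log2 scale (edgeR adjusted p = 0.0367). QRICH1, 299 bases from IMPDH2, had a log2 fold change of -0.02 (edgeR adjusted p = 0.884).

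The 2 branches were also set against each other within each library. The log2 ratio of summed TPM, ADSS2 and ADSL over IMPDH1, IMPDH2 and GMPS, was -1.40, -1.37 and -1.45 in libraries 1, 2 and 3 without serine and glycine, against -1.29, -1.07 and -1.14 in complete medium. The 2 media did not overlap. The means differed by -0.24, at -1.41 ± 0.044 without serine and glycine and -1.17 ± 0.109 in complete medium (SD, n = 3 each), with a two-sided exact permutation p of 0.1, the smallest that 3 against 3 libraries allow. With ADSS2 alone as the AMP branch the difference was -0.34. The share of IMPDH2 in summed IMPDH TPM was 76.1%, 77.2% and 75.4% without serine and glycine, against 76.9%, 79.9% and 77.6% in complete medium, which overlapped (difference of -1.91 percentage points, two-sided exact permutation p = 0.2).

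**Figure D3:**
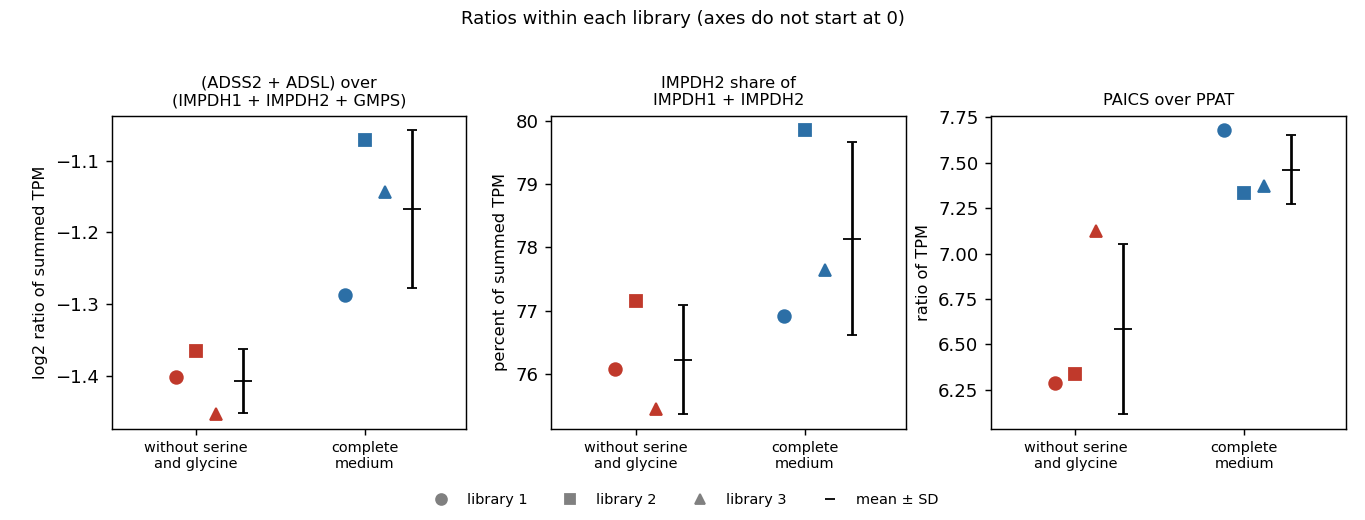
Ratios within each library, with the medium without serine and glycine on the left of each panel and complete medium on the right, and black bars for the mean ± SD of 3 libraries. The log2 ratio of AMP-branch to GMP-branch TPM and the PAICS to PPAT ratio do not overlap between media, and the IMPDH2 share does. The vertical axes do not start at 0.

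Levels of different enzymes are compared per length, in TPM. Without serine and glycine the order ran from PPAT at 31.1 ± 2.27 through PFAS at 43.8 ± 6.65, ADSS2 at 54.8 ± 5.66, GMPS at 59.3 ± 1.48, IMPDH1 at 69.7 ± 4.27, ADSL at 78.1 ± 2.54, ATIC at 132 ± 8.16, PAICS at 204 ± 1.78 and GART at 211 ± 7.47 to IMPDH2 at 223 ± 11.4 TPM (SD, n = 3). PFAS and ADSS2, ADSS2 and GMPS, PAICS and GART, and GART and IMPDH2 were neighbours whose libraries overlapped. In complete medium the order was the same except that ADSS2, at 74.1 ± 6.84 TPM, stood between IMPDH1 at 69.2 ± 5.16 and ADSL at 94.2 ± 6.86 TPM. There the libraries of ADSS2 and IMPDH1 overlapped, as did those of GART at 245 ± 5.99 and IMPDH2 at 248 ± 13.3 TPM. PPAT was the lowest of the 10 in every library. The 10 enzymes summed to 1153, 1108 and 1061 TPM without serine and glycine, against 1224, 1301 and 1212 TPM in complete medium, and these sums did not overlap.

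**Figure D4:**
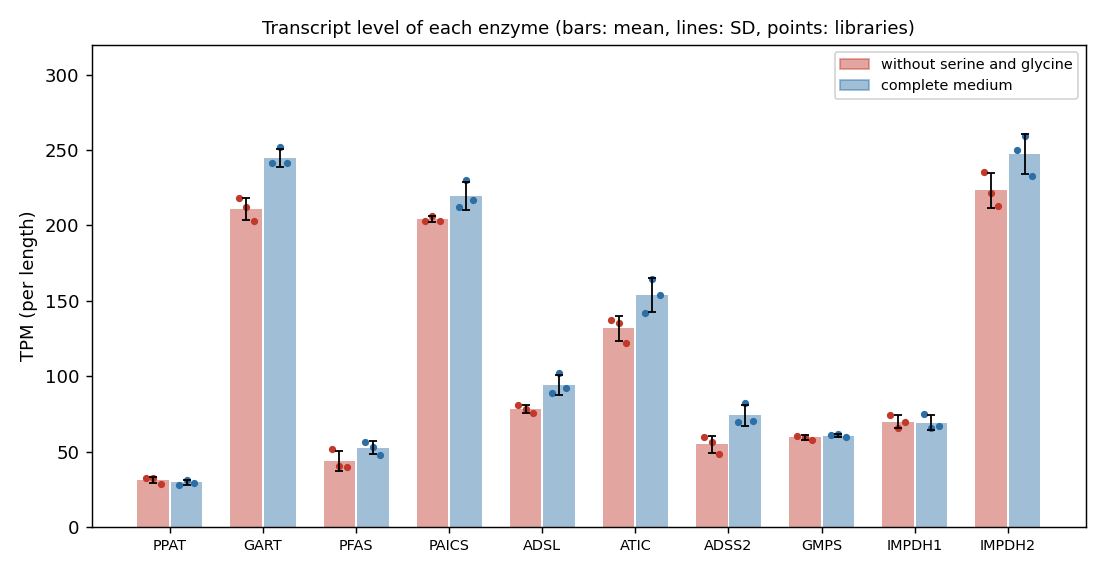
Level of each enzyme in TPM, a per-length scale, with the bars of the medium without serine and glycine left of those of complete medium. Bars are means, lines SD and points the 3 libraries. PPAT is the lowest at 31.1 TPM without serine and glycine and 29.5 TPM in complete medium, and GART, PAICS and IMPDH2 are the highest.

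Enzymes that supply the pathway moved in part. The counts for this and the other lists are read against 4.22% of all tested genes called lower and 2.73% higher, 13.2% and 11.1% with the block, 14.4% lower at an unadjusted p under 0.05, and 6.24% lower by DESeq2. Of 10 tested genes that make and retain formyl-folate, 3 fell and 0 rose, their median log2 fold change was -0.17, and 5 were lower with the replicate block, which added MTHFD2 and SHMT1 (log2 fold changes -0.25 and -0.19). Without both libraries numbered 1 the same 5 were lower. All 10 had a negative log2 fold change, against 50.2% of tested genes. In CPM, 6 of the 10 were lower in every library with no overlap of the media, against 16.4%. At an unadjusted p under 0.05, 5 of the 10 were lower and 0 higher. FPGS, which adds the glutamate tail that holds folates in the cell, was at 31.5, 30.9 and 25.3 CPM without serine and glycine, against 43.9, 54.8 and 46.5 CPM in complete medium (log2 fold change -0.73, edgeR adjusted p = 0.0217). MTHFD1, the cytosolic enzyme that forms formyl-tetrahydrofolate, was at 199.9, 183 and 182 CPM without serine and glycine, against 232, 254 and 231 CPM in complete medium (log2 fold change -0.34, edgeR adjusted p = 0.0246). MTHFD1L, which releases formate from mitochondria, had a log2 fold change of -0.31 (edgeR adjusted p = 0.0340). For all 3 the media did not overlap, with every deprived library lower.

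Of 4 tested genes of PRPP supply, edgeR and DESeq2 each called 0, 1 was lower at an unadjusted p under 0.05, and the median was -0.05. All 4 had a negative log2 fold change, and for each the media overlapped in CPM. PRPSAP2, a subunit associated with PRPP synthetase, had a log2 fold change of -0.25 (edgeR adjusted p = 0.176, and 0.0140 with the replicate block and 0.00730 without both libraries numbered 1), and PRPSAP1 one of -0.07 (edgeR adjusted p = 0.595). Of 4 tested genes of glutamine and aspartate metabolism, edgeR called 0, DESeq2 called 1 lower, 2 were lower at an unadjusted p under 0.05, and the median was -0.07. These were the aspartate aminotransferases. GOT1 had a log2 fold change of -0.47 (edgeR adjusted p = 0.0790, 0.00208 with the block and 0.000212 without both libraries numbered 1) and GOT2 one of -0.16 (edgeR adjusted p = 0.130, 0.0365 with the block and 0.00901 without both libraries numbered 1).

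In each list of genes that reuse, import or break down purines, edgeR called 1 gene lower. Of 10 tested salvage and interconversion genes, 1 fell and 0 rose, against 4.22% and 2.73% of all tested genes, and the median was -0.03. At an unadjusted p under 0.05, 3 of the 10 were lower and 2 higher, against 1806 and 1619 of 12548 tested genes. APRT, which salvages adenine, was at 23.8, 33.0 and 32.0 CPM without serine and glycine, against 40.4, 51.7 and 44.3 CPM in complete medium (log2 fold change -0.62, edgeR adjusted p = 0.0304). With the replicate block HPRT1, which salvages hypoxanthine and guanine, and ADK, the adenosine kinase, were also lower (log2 fold changes -0.28 and -0.24), while AMPD2, an AMP deaminase, and ADSS1 were higher (0.27 and 0.40). That made 3 lower and 2 higher of 10, against 13.2% and 11.1% of all tested genes with the block. Without both libraries numbered 1, HPRT1 and ADK were lower and AMPD2 higher, while ADSS1 had an adjusted p of 0.0622 in edgeR. Genes called only with the block were named after their values were seen.

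Of 5 tested nucleoside and base carriers, 1 fell and 0 rose, with a median of -0.31. At an unadjusted p under 0.05, 3 of the 5 were lower and 0 higher, against 14.4% of tested genes lower. SLC29A2, an equilibrative carrier, was at 23.7, 21.7 and 21.7 CPM without serine and glycine, against 34.6, 35.4 and 33.0 CPM in complete medium (log2 fold change -0.62, edgeR adjusted p = 0.0184). Its relative SLC29A1 had a log2 fold change of -0.31 (edgeR adjusted p = 0.0503, 0.00781 with the block and 0.00363 without both libraries numbered 1). Of 8 tested breakdown genes, 1 fell and 0 rose, with a median of -0.16. At an unadjusted p under 0.05, 4 of the 8 were lower and 1 higher. NT5C, a nucleotidase, was at 10.8, 11.1 and 9.71 CPM without serine and glycine, against 14.3, 15.6 and 14.3 CPM in complete medium (log2 fold change -0.48, edgeR adjusted p = 0.0320). With the block ADA and GDA were also lower and NT5C2 higher (log2 fold changes -0.38, -0.27 and 0.19). Without both libraries numbered 1 these calls were made too, and PNP, a nucleoside phosphorylase, was lower (edgeR adjusted p = 0.0252). Of 11 tested nucleotide kinases, 1 fell and 0 rose, with a median of -0.12. NME1 was at 177 CPM without serine and glycine and 211 CPM in complete medium (log2 fold change -0.25, edgeR adjusted p = 0.0466). Whether the counting divided reads between NME1 and its close copy NME2 was not tested. With the block NME2 and NME4 were also lower and NME6 higher (log2 fold changes -0.15, -0.23 and 0.20, edgeR adjusted p = 0.0442, 0.0340 and 0.0353), and without both libraries numbered 1 the adjusted p-values were 0.0932, 0.152 and 0.0613. Scaled by library totals, or by limma voom, 0 of the 11 were called lower, while 2 were lower at an unadjusted p under 0.05 in edgeR and 1 was called by DESeq2.

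Pyrimidine synthesis, the parallel route to the other nucleotides, had 0 of 5 tested genes called by edgeR, against 3 of 10 for purine synthesis. DESeq2 called 1 of the 5 lower, against 6.24% of all tested genes, 2 were lower at an unadjusted p under 0.05, against 14.4%, and 2 with the block, against 13.2%. The median was -0.08. A negative log2 fold change was found for 4 of the 5, against 50.2% of tested genes. In CPM, 3 of the 5 were lower in every library with no overlap of the media, against 16.4%. CTPS1, which makes CTP, was at 147 CPM without serine and glycine and 177 CPM in complete medium (log2 fold change -0.27, edgeR adjusted p = 0.0510, 0.0157 with the block and 0.000399 without both libraries numbered 1), and CAD, which starts the pathway, had a log2 fold change of -0.15 (edgeR adjusted p = 0.122, 0.0394 with the block and 0.0260 without both libraries numbered 1). The difference between the routes was not tested.

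The transcripts of a pair of regulators, MYC and ATF4, were not called with all 6 libraries. MYC, a direct activator of several of these enzymes in other cells, was at 248, 276 and 293 CPM without serine and glycine and at 245, 238 and 257 CPM in complete medium, and the media overlapped (log2 fold change 0.14, edgeR adjusted p = 0.230). ATF4, the amino acid stress factor, was at 475, 608 and 609 CPM without serine and glycine and at 493, 509 and 538 CPM in complete medium, and also overlapped (log2 fold change 0.14, edgeR adjusted p = 0.396). Without both libraries numbered 1 each was called higher, against 13.5% of tested genes, with log2 fold changes of 0.21 for MYC and 0.22 for ATF4 (edgeR adjusted p = 0.00892 and 0.0024). The summed level of the 4 proliferation genes MKI67, TOP2A, PCNA and MCM2 was 1095 to 1126 TPM without serine and glycine and 1040 to 1081 TPM in complete medium. Taken singly, each of the 4 overlapped between the media. PCNA, the largest part of the sum, was at 589 to 620 TPM without serine and glycine and 526 to 625 TPM in complete medium. The part of these genes in the results was not tested.

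**Figure D5:**
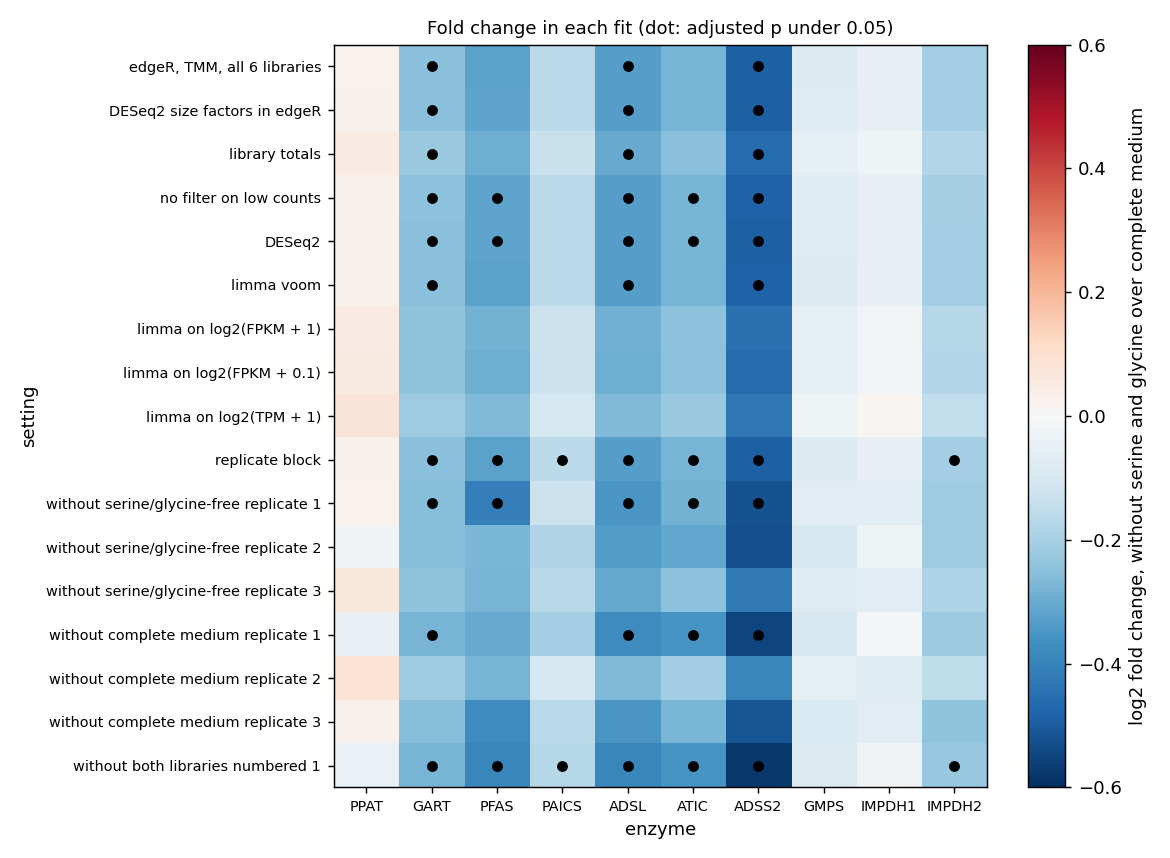
Log2 fold change of each enzyme, without serine and glycine over complete medium, in 17 fits that differ in scaling, filter, test or libraries. Blue is lower and red higher, and a dot marks an adjusted p under 0.05. ADSS2 is the darkest column in each row, and PPAT and IMPDH1 are near 0 and change sign.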

How the data were processed

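Messenger RNA of 6 libraries was sequenced on a DNBSEQ platform, per the labels' protocols. RSEM 1.3.1, Bowtie2 2.3.4.3 and GRCh38 are named, without roles, in the submitters' processing notes. Files deposited by the authors give FPKM values (per length and depth), TPM values (per length, with equal library totals) and expected counts per gene. The counts were rounded to whole numbers and fitted with edgeR 4.0.16 under R 4.3.3: filterByExpr (minimum count 10, minimum total 15) kept 12548 genes, with TMM factors of 0.978 to 1.025, a robust quasi-likelihood fit and two-sided p-values adjusted over all tested genes. The common biological coefficient of variation was 8.43%. CPM uses TMM-scaled library sizes. SE is the absolute log2 fold change over the square root of F, so it follows from the test.

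Same-numbered libraries deviated together across genes (r = 0.326, 0.141 and 0.190, each over 0.1), which met the criterion for pairing, although library 2 of the deprived medium and library 3 of complete medium also gave 0.163. The block value is given where it changes the call of a named gene. Tested on simulated data for this comparison (12464 genes), the fit called 212 genes. These held 99 of the 100 simulated at 1.5-fold, all 100 simulated at 2-fold, and 13 unchanged genes. Every enzyme change was smaller than 1.5-fold, the largest being ADSS2 at 71.2% of its level in complete medium. The simulation used the same coefficient of variation, 0.085, for all genes and no shared deviation of libraries. It therefore does not show how often changes of the enzymes' size would be called.

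Alternatives used DESeq2 1.42.0, limma 3.58.1 on voom, log2(FPKM + 1), log2(FPKM + 0.1) and log2(TPM + 1) for genes with an FPKM of at least 1 in 3 libraries, other scalings, no filter, the block, and libraries left out. Ratios were tested with exact permutations in scipy 1.17.1. Gene positions and promoters are from RefSeq for GRCh38.p14, and overlaps from a GENCODE annotation of GRCh38. All 10 enzymes are named, and from each accompanying list every called gene or, with none called, the 2 smallest adjusted p, plus MYC, ATF4 and annotated neighbours within 1000 bases. A result that this rule would name is not reported here. The enzymes and lists were chosen with earlier results of these data known.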

Additional observations from a re-analysis of the deposited data

How the results depend on the processing

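GART, PFAS, PAICS, ADSL, ATIC, ADSS2, GMPS and IMPDH2 had negative log2 fold changes in all 16 alternatives, which share libraries and are not independent. PPAT turned to -0.040 without both libraries numbered 1 and ran from -0.043 to 0.089 with single libraries left out, at -0.043 without complete-medium replicate 1 and -0.02 without deprived replicate 2, and IMPDH1 turned to 0.0099 on log2(TPM + 1); the cause was not tested. Neither was called in any fit. The count of enzymes called lower, 3 in the main analysis, was 5 with no filter and by DESeq2, 0 on log2(FPKM + 1), log2(FPKM + 0.1) and log2(TPM + 1), where 6, 6 and 4 were lower at an unadjusted p under 0.05, 7 with the replicate block, 7 without both libraries numbered 1, and 0 to 5 when single libraries were left out.

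Over all genes, 529 were called lower and 343 higher. Limma gave 192 and 99 on log2(FPKM + 1), and 0 and 0 on log2(FPKM + 0.1) and on log2(TPM + 1), where 1377 and 1152 were lower and 1630 and 1819 higher at an unadjusted p under 0.05. The replicate block gave 1657 and 1387, omission of both libraries numbered 1 gave 1947 and 1696, and single omissions 0 to 979 and 0 to 758. The counts of lower list genes in the main analysis were 3 for formyl-folate supply, 1 each for salvage, breakdown, kinases and carriers, and 0 for PRPP supply, nitrogen donors and pyrimidine synthesis. With the block they were 5, then 3, 3, 3 and 2, then 1, 2 and 2. Without both libraries numbered 1, formyl-folate supply had 5, salvage 3, breakdown 4, carriers 2, PRPP supply 1, nitrogen donors 2 and pyrimidine synthesis 2. DESeq2 gave salvage 2, carriers 2, nitrogen donors 1 and pyrimidine synthesis 1, and no filter gave salvage 2, carriers 2 and pyrimidine synthesis 1. Kinases had 0 by library totals, voom and log2(FPKM + 1), and formyl-folate supply 1 on log2(FPKM + 1). On log2(FPKM + 0.1) and log2(TPM + 1) each of the 9 lists had 0. Leaving out single libraries gave 0 to 4 for formyl-folate supply, 0 to 3 for salvage, 0 to 2 for breakdown and carriers, and 0 to 1 for kinases, PRPP supply, nitrogen donors and pyrimidine synthesis.

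The difference in the AMP to GMP branch ratio was -0.24, and -0.34 with ADSS2 alone as the AMP branch. It ran from -0.30 to -0.19 with single libraries left out, and from CPM it was -0.29. With same-numbered libraries as a replicate block the exact permutation p was 0.25, the smallest that 3 pairs allow, for it and for the IMPDH2 share, whose difference ran from -2.52 to -1.06 percentage points with single libraries left out.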
